A study of Mus musculus with 10 samples.

Results

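The 4 syndecans (*Sdc1* to *Sdc4*) and the 6 glypicans (*Gpc1* to *Gpc6*) were followed by RNA-seq in 10 mouse melanomas, of which 5 carried a disruption of the microRNA gene *Mir25*. All 10 genes were found by their symbols among 55401 gene entries. The tumors grew under the skin of the flank from B16F10 cells, a pigmented C57BL/6 melanoma line, and were collected on day 15. KO tumors came from cells edited at the *Mir25* stem-loop by CRISPR-Cas9, and NTC tumors from cells given a non-targeting control guide. By the methods of the study the KO cells were an edited population, and single-cell clones were a separate material. The labels do not give the guide. The hosts were C57BL/6J female mice of 9 to 12 weeks, unedited at *Mir25*, so leukocytes, fibroblasts and vessels in either group kept the gene. Both groups received the same combination therapy. It consisted of GVAX, 1000000 irradiated B16 cells secreting GM-CSF, into the opposite flank on days 1 and 4, and of anti-PD-1 antibody at 10 mg/kg on days 6, 9 and 12. There was no untreated group among these tumors. The comparisons asked which of the 10 genes differed between KO and NTC tumors and which followed the leukocyte content of the tumor, for a study whose title names Syndecan-3.

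Syndecans and glypicans are the main families of cell-surface proteoglycans that carry heparan sulfate, a long sulfated sugar chain. Syndecans cross the membrane and end in a short cytoplasmic tail that binds scaffold proteins, whereas glypicans are tied to the outer leaflet by a glycosylphosphatidylinositol anchor. Through their chains they hold growth factors, chemokines and Wnt ligands at the cell surface, and proteases or lipases release their ectodomains. *Sdc1* is known from epithelia and plasma cells, *Sdc2* from fibroblasts and endothelium, *Sdc3* from nerve and from myeloid cells, and *Sdc4* from focal adhesions of most cell types. *Gpc3* and *Gpc4* are known from embryonic and mesenchymal tissue, *Gpc1* from brain and many tumors, and *Gpc2* from developing neurons.

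The microRNA that was edited belongs to a family that shares 1 seed, the stretch that pairs with target messages. RefSeq lists 6 mature mouse microRNAs with this seed, made from 7 loci. They are shown because an unedited family member carries the same targeting letters as miR-25, with bases 2 to 8 (the seed) in capitals.
miR-25-3p: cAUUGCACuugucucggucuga
miR-92a-3p: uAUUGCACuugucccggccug
miR-92b-3p: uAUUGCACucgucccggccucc
miR-363-3p: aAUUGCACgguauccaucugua
miR-32-5p: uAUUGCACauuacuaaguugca
miR-367-3p: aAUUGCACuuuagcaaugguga
The letters complementary to this seed were looked for in the 3′ untranslated regions of the 10 genes (GENCODE M21 annotation of GRCm38, sense strand only). The search took GTGCAAT, complementary to the whole seed, and TGCAATA, complementary to bases 2 to 7 with an A after them, which overlaps the first by 6 letters where GTGCAATA stands. *Sdc3*, *Sdc2* and *Sdc1* each held 1 match, and the other 7 genes held none. The matches are in capitals within windows of 30 bases, on the plus strand of chr4:130825229-130825258, chr15:33032985-33033014 and chr12:8793660-8793689.
Sdc3: ggtgaactgaattcttcctaGTGCAATgtg
Sdc2: tgccttttgtagctgtcatgGTGCAATttg
Sdc1: gctgggctcattcatataatTGCAATAaat
The match lay at base 2440 of 3510 of the *Sdc3* region, at base 465 of 2395 of the *Sdc2* region and at base 1873 of 1908 of the *Sdc1* region. Of 20997 protein-coding genes with such a region, 6.94% held GTGCAAT, 9.45% held TGCAATA, 2.4% held GTGCAATA and 13.3% held any of them. A match of letters is a description and was not tested here as a target site. The study itself tested a predicted miR-25 site of *Sdc3* with a luciferase reporter in B16 cells.

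Glypican genes also lie close to loci of this microRNA family. *Gpc2* (chr5:138273655-138280005, minus strand) lies 108.3 kb from *Mir25* itself (chr5:138165321-138165404, minus strand), which sits in an intron of *Mcm7*. *Gpc5* (chr14:115092215-116525179) begins 47.7 kb from *Mir92-1*, and *Gpc6* (chr14:116925315-117976544) follows *Gpc5* on the same strand. *Gpc3* (chrX:52272426-52613950) and *Gpc4* (chrX:52053021-52165252) share the minus strand of the X chromosome, with *Mir363* and *Mir92-2* at 127.7 and 127.9 kb from *Gpc3*. The other genes lie apart: *Sdc1* on chr12:8771323-8793715, *Sdc2* on chr15:32920723-33034935, *Sdc3* on chr4:130792537-130826319, *Sdc4* on chr2:164424247-164443887 and *Gpc1* on chr1:92831645-92860779. In this annotation exons of *Sdc3* overlap *Gm12970* by 48 bases and *Gm26716* by 415 bases on the opposite strand, and exons of *Gpc1* overlap *Ankmy1* by 977 bases. The strand setting of the counting is not given in the sources used here, so reads in those stretches cannot be assigned to one gene.

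Each library held 11896643 to 28682130 reads on genes. NTC replicate 1 stood apart from the other 9 libraries. It had the fewest reads on genes (11896643, against at least 23243707), the largest share of reads outside genes (42.9%, against 17.5 to 28.2%) and the most genes with a count (33193, against 22192 to 25435). Genes without a read in any other library received 0.83 counts per kb of exon in it, against 0.0276 to 0.0856 in the others. That rate would give 3.55 counts to *Gpc2*, where it had 3, 2.2 to *Gpc4*, where it had 21, 2.23 to *Gpc3*, where it had 219, and 4.97 to *Sdc3*, where it had 1904. The tests of the 8 genes are therefore given over all 10 tumors and over the 9 without this library. *Mir25* itself had no count in any of the 10 libraries, KO or NTC, so these data do not check the labels. The labels call the samples biological replicates and do not say that each tumor came from a mouse of its own, so p-values measure the spread between these tumors, which may in part be technical. The melanocyte genes of the melanoma list summed to 12555 to 20863 counts per 1000000 reads after scaling (CPM) in KO and 12093 to 22926 in NTC tumors, and none of the 10 was at 0 in a group.

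*Sdc4* had the highest level of the 10 genes per length, and *Gpc2* and *Gpc5* were close to the limit of detection. Levels per length are mean CPM per kb of exon over the 10 tumors, after TMM scaling of the library sizes. They were 41.7 ± 11 (SD) for *Sdc4*, 25.4 ± 19.2 for *Sdc3*, 25.4 ± 5.16 for *Gpc1*, 14.8 ± 5.53 for *Sdc1* and 11.4 ± 1.44 for *Sdc2*. A gap followed, with 2.40 ± 3.16 for *Gpc3*, 1.06 ± 0.389 for *Gpc6*, 0.416 ± 0.377 for *Gpc4*, 0.0647 for *Gpc5* and 0.0239 for *Gpc2*. *Sdc4* was above *Sdc3* in 9 of 10 tumors and *Sdc3* above *Gpc1* in 4, so those 2 were not separated. The range of each gene overlapped that of the next in this order. Without NTC replicate 1 the order differed only in that *Gpc1* preceded *Sdc3*. The genes differed in how much they varied. The highest tumor had 8.78 times the lowest for *Sdc3*, 2.65 times for *Sdc1*, 1.99 times for *Sdc4*, 1.80 times for *Gpc1* and 1.45 times for *Sdc2*.

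**Figure D1:**
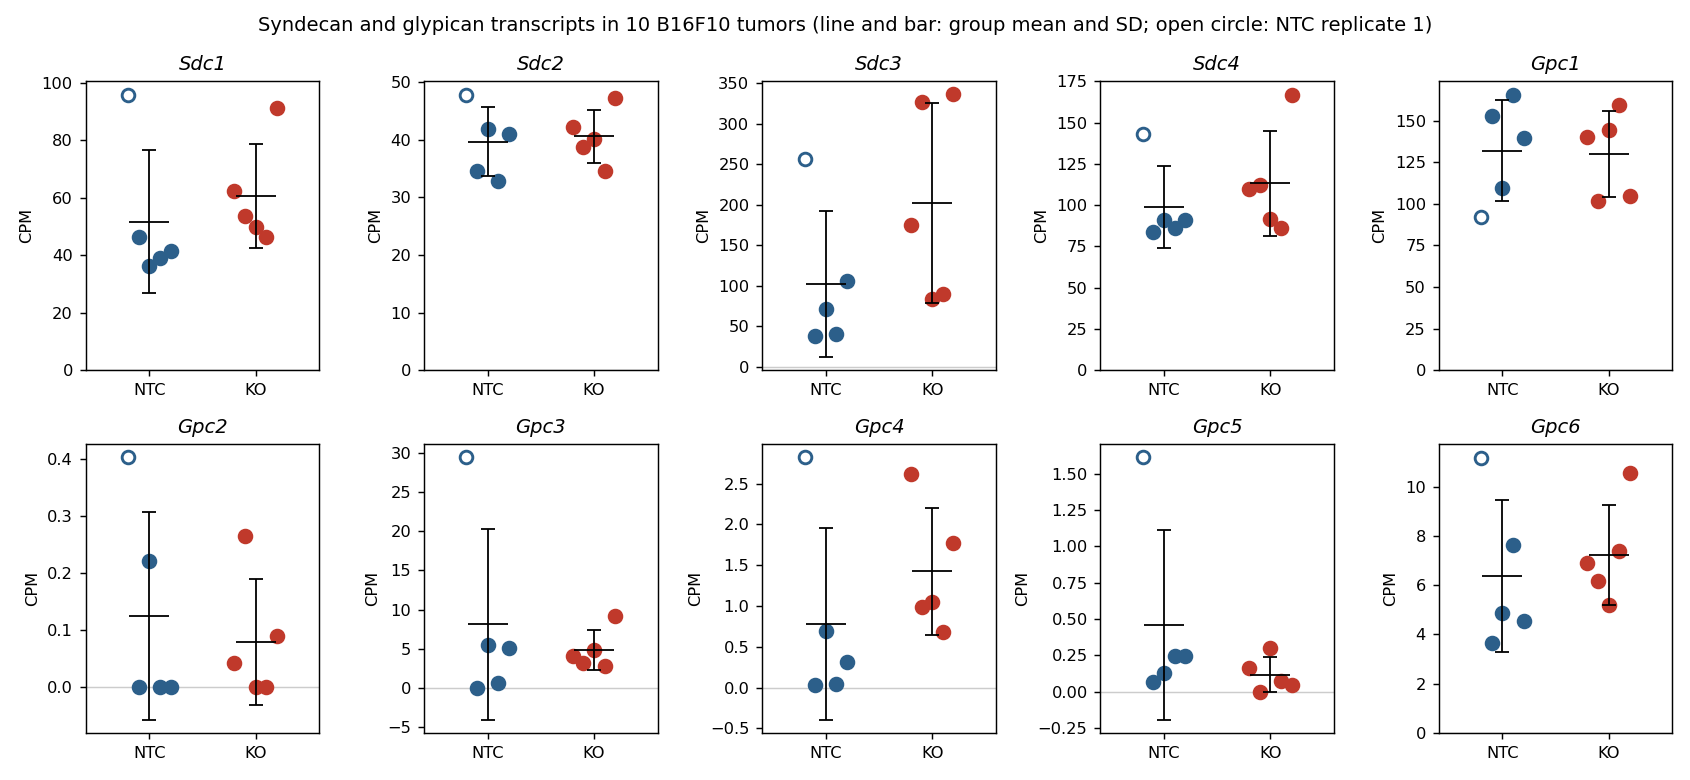
CPM (vertical axes, linear, 1 panel a gene with its own scale) of the 10 genes in NTC and KO tumors, 1 point a tumor, with NTC replicate 1 as an open circle, the group mean as a horizontal line and the SD as error bars. *Sdc3* spans 38.3 to 336 CPM while *Sdc2* stays between 32.9 and 47.8 CPM.

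*Sdc3* had the widest range of the abundant genes, and its level was spread through both groups. Its values in KO tumors 1 to 5 were 175, 327, 82.9, 89.6 and 336 CPM, a mean of 202 ± 124 (SD, n = 5). In NTC tumors 1 to 5 they were 256, 38.3, 70.7, 40.3 and 105 CPM, a mean of 102 ± 90.4 (n = 5), or 63.7 ± 31.6 (n = 4) without replicate 1. The groups overlapped: 2 KO tumors lay below NTC replicate 5, and NTC replicate 1 lay above 3 KO tumors. *Sdc4* was even in most tumors and high in a few. It read 110, 112, 91.9, 86.2 and 167 CPM in KO and 143, 83.7, 91.1, 86.0 and 90.8 CPM in NTC tumors. Its NTC values were 87.9 ± 3.63 CPM (n = 4) without replicate 1. *Sdc1* shared these high tumors, with 62.5, 53.6, 49.9, 46.3 and 91.2 CPM in KO and 95.8, 46.2, 36.1, 39.0 and 41.4 CPM in NTC tumors. Without NTC replicate 1, the lowest KO tumor (46.3) was level with the highest NTC tumor (46.2). *Sdc2* varied least, from 34.7 to 47.2 CPM in KO and 32.9 to 47.8 CPM in NTC tumors.

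Among the glypicans, *Gpc1* was the abundant member. It read 140, 102, 144, 160 and 104 CPM in KO and 92, 153, 110, 166 and 140 CPM in NTC tumors. The lowest 3 values belonged to NTC replicate 1 and KO replicates 2 and 5, the tumors with the highest *Sdc3*. NTC replicate 3, with 110 CPM of *Gpc1*, was also low in *Sdc3* (70.7 CPM). *Gpc3* was low everywhere but in 1 library, with 4.06, 3.11, 4.78, 2.85 and 9.21 CPM in KO and 29.5, 0, 5.43, 0.651 and 5.03 CPM in NTC tumors. The 0 is a count of 0 in NTC replicate 2, which allows up to 3 counts, or 0.105 per 1000000 reads on genes (counting error only). *Gpc4* read 2.62, 0.987, 1.04, 0.685 and 1.78 CPM in KO and 2.83, 0.0328, 0.694, 0.0407 and 0.312 CPM in NTC tumors. NTC replicates 2 and 4 held 1 count of *Gpc4* each, and they were also lowest for *Gpc3*, with 0 and 16 counts. *Gpc6* ranged from 5.19 to 10.5 CPM in KO and 3.64 to 11.2 CPM in NTC tumors.

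*Gpc2* and *Gpc5* did not pass the filter on low counts, so the main tests left them out. With no filter, neither was called between KO and NTC tumors. *Gpc5* was at −1.66 (adjusted p = 0.520) and *Gpc2* at −0.37 (adjusted p = 0.936) by edgeR's quasi-likelihood test. *Gpc2* had 1, 7, 0, 0 and 2 counts in KO and 3, 0, 7, 0 and 0 counts in NTC tumors. Summed over a group this was 0.0798 counts per 1000000 reads on genes (95% exact Poisson interval 0.0383 to 0.147) in KO and 0.0834 (0.0400 to 0.153) in NTC tumors, and a difference was not detectable at this depth. In the annotation its exons share 2376 bases with *Gm43720* on the same strand. *Gpc5* had 4, 0, 9, 2 and 1 counts in KO and 12, 2, 4, 6 and 7 counts in NTC tumors, or 0.128 (0.0730 to 0.207) and 0.259 (0.176 to 0.367) on the same scale. Without NTC replicate 1 the NTC value was 0.176 (0.106 to 0.275), which overlaps the KO interval. These intervals cover counting error only.

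None of the 8 genes tested was called between KO and NTC tumors. A call needed an absolute log2 fold change above 1 and an adjusted p below 0.05 in the quasi-likelihood test of edgeR, with p-values adjusted by Benjamini-Hochberg over 15821 genes, and 0.019% of genes met it (3 genes). At an unadjusted p below 0.05 the test found 1400 genes and none of the 8. By DESeq2 none of the 8 was called either, at 0.609% of genes. *Sdc3* was 0.99 higher in KO on the log2 scale (SE 0.60, 95% confidence interval −0.33 to 2.31, adjusted p = 0.659 by edgeR's quasi-likelihood test). That interval holds both no difference and a rise of 2.31. *Gpc1* differed by −0.02 (interval −0.43 to 0.39, adjusted p = 0.980) and *Sdc2* by 0.04 (interval −0.23 to 0.31, adjusted p = 0.948) in the same edgeR test, the narrowest intervals among the 8. For *Sdc1* the difference was 0.24 (SE 0.29), for *Sdc4* 0.20 (SE 0.21), for *Gpc6* 0.20 (SE 0.32), for *Gpc4* 1.09 (SE 0.96) and for *Gpc3* −0.72 (SE 1.12), with adjusted p from 0.764 to 0.876 in edgeR's test. The median was 0.22 for the 4 syndecans and 0.09 for the 4 glypicans tested, beside 0.008 for all genes. Without NTC replicate 1 these medians were 0.43, 0.61 and −0.015.

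Without NTC replicate 1 the difference of each of the 8 genes was larger in size, and again none of the 8 was called (0.106% of genes, 17 of 16078). *Sdc3* was then 1.62 higher in KO (SE 0.49, interval 0.53 to 2.72, adjusted p = 0.167 by edgeR's quasi-likelihood test). *Gpc4* was 2.31 higher (SE 0.76, interval 0.62 to 4.01, adjusted p = 0.182) and *Sdc1* 0.54 higher (SE 0.19, adjusted p = 0.190) in the same edgeR test. These 3 had an unadjusted p below 0.05, as did 3230 genes. *Gpc3* turned from −0.72 to 0.76 (SE 0.94, adjusted p = 0.669 by edgeR). *Sdc4* was at 0.33, *Gpc6* at 0.45, *Sdc2* at 0.08 and *Gpc1* at −0.16, with edgeR adjusted p from 0.299 to 0.713. With DESeq2 and no filter over the same 9 tumors, an alternative chosen after the data were seen, 4.05% of genes were called, 2 of them from these families. They were *Sdc3* at 1.66 (SE 0.47, DESeq2 adjusted p = 0.0158) and *Gpc4* at 2.36 (SE 0.73, DESeq2 adjusted p = 0.0311). That fit differs from the main one in the tool, the filter and the library at once, so these calls cannot be put down to one of them.

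**Figure D2:**
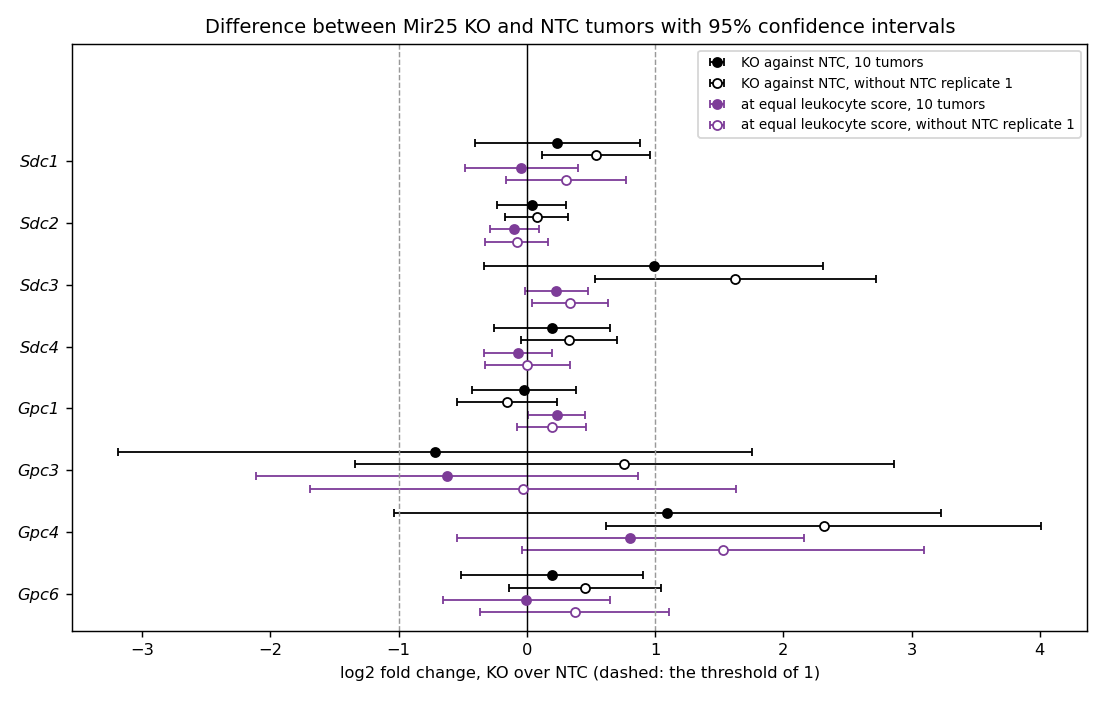
log2 fold change of KO over NTC (horizontal axis) with 95% confidence intervals (edgeR) for the 8 genes tested, over 10 tumors (filled) and without NTC replicate 1 (open), without (black) and with (purple) the leukocyte score in the model. Dashed lines mark a log2 fold change of 1 in either direction. Over 10 tumors the intervals without the score all hold 0, and *Sdc3* moves from 0.99 to 0.23 with the score in the model.

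Leukocyte content was read from a score, the mean log2 CPM of 10 pan-leukocyte genes (*Ptprc*, *Cd53*, *Coro1a*, *Laptm5*, *Lcp1*, *Cd48*, *Cytip*, *Arhgdib*, *Cd52* and *Rac2*), none of them a syndecan or glypican. The score was 6.69, 7.46, 5.79, 5.61 and 7.73 in KO and 7.34, 4.66, 5.92, 4.65 and 6.25 in NTC tumors. Over 10 tumors the mean difference of 0.89 gave p = 0.222 by a two-sided exact permutation test, where 0.00794 is the smallest p possible. Without NTC replicate 1 the mean difference of 1.29 gave p = 0.0952 by a two-sided exact permutation test. Of the 10 genes, 9 had coefficients of 0.93 to 1.27 on the score and *Arhgdib* had 0.14. In bulk tumors, fewer cells of a type and less RNA per cell cannot be told apart. The score moved together with other cell type scores: it correlated with the macrophage score at r = 0.994, with the fibroblast score at r = 0.929 and with the melanoma score at r = −0.812 over the 10 tumors.

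*Sdc3* followed the leukocyte score nearly in proportion. Its coefficient was 0.99 log2 units per log2 unit of the score with group in the model (SE 0.054, interval 0.88 to 1.11, adjusted p = 8.84e-08 by edgeR's quasi-likelihood test). Over 9 tumors it was 0.94 (SE 0.067, adjusted p = 2.55e-06 by edgeR). The leukocyte genes *Cytip* and *Cd52* had 0.98 and 1.04 in the 10 tumors. Across the 10 tumors log2 CPM of *Sdc3* correlated with the score at r = 0.986 (permutation p = 2e-05, adjusted 0.000586) and rho = 0.939 (permutation p = 0.00026, adjusted 0.00387). It was r = 0.990 within KO tumors, 0.986 within NTC tumors and 0.979 without KO replicate 5 and NTC replicate 4, the 2 tumors farthest from the median score. Of the 15821 genes, 0.936% had a higher r.

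In all, 7 of the 8 genes tested were called on the leukocyte score, where 37.8% of all genes were called, 22.7% higher and 15.1% lower with the score. Of the 7, 6 rose with the score and *Gpc1* fell. *Gpc1* changed by −0.28 per unit (SE 0.049, interval −0.39 to −0.17, adjusted p = 0.000983 by edgeR's quasi-likelihood test), and by −0.29 over 9 tumors (adjusted p = 0.00547 by edgeR). *Sdc4* rose by 0.29 (SE 0.056, adjusted p = 0.0018) and by 0.23 over 9 tumors (adjusted p = 0.0331) in the same edgeR fits. These 2 genes and *Sdc3* kept their calls without NTC replicate 1, where 27.4% of genes were called, 15.8% higher and 11.7% lower.

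The other 4 were not called without NTC replicate 1. *Gpc3* had a coefficient of 1.45 (SE 0.39, adjusted p = 0.0116) and *Gpc4* 1.25 (SE 0.36, adjusted p = 0.0157) in edgeR's quasi-likelihood test. Over 9 tumors they had 1.04 (edgeR adjusted p = 0.119) and 0.80 (edgeR adjusted p = 0.173). *Sdc1* went from 0.35 (SE 0.093, adjusted p = 0.0116) to 0.17 (adjusted p = 0.250) and *Sdc2* from 0.16 (SE 0.042, adjusted p = 0.0112) to 0.13 (adjusted p = 0.111), again by edgeR. *Gpc6* was not called over either set, with 0.25 (SE 0.14, edgeR adjusted p = 0.165) and 0.06 (edgeR adjusted p = 0.824).

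**Figure D3:**
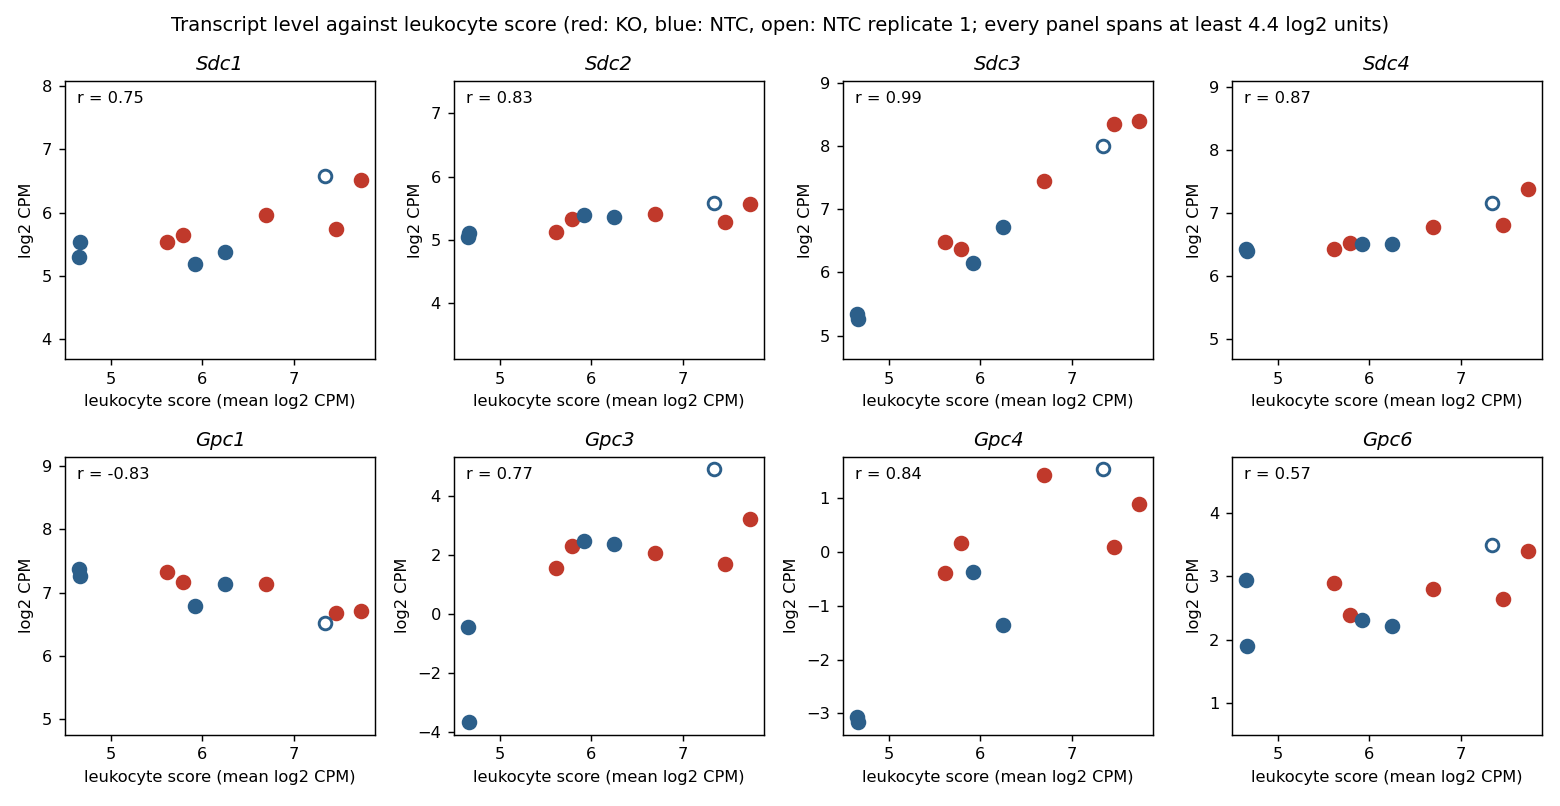
log2 CPM of each of the 8 genes (vertical axes) against the leukocyte score in log2 CPM (horizontal axes), 1 point a tumor, with KO in red, NTC in blue and NTC replicate 1 as an open circle. *Sdc3* rises along a line in both groups (r = 0.986), *Gpc1* falls (r = −0.830), and *Gpc3* and *Gpc4* drop to their lowest in the 2 NTC tumors with the lowest scores.

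Correlations of log2 CPM with the leukocyte score were also computed. Over 10 tumors, 7 of 8 genes had an r with an adjusted permutation p below 0.05, as had 35.2% of all genes. *Sdc4* had r = 0.869 (permutation p = 0.00041, adjusted 0.00363) and rho = 0.927, and *Gpc1* r = −0.830 (permutation p = 0.0044, adjusted 0.0183) and rho = −0.891. Within each group their r kept its sign, at 0.889 and 0.860 for *Sdc4* and at −0.946 and −0.884 for *Gpc1* in KO and NTC. *Gpc4* had r = 0.839 (adjusted permutation p = 0.0125) and *Gpc3* r = 0.767 (adjusted permutation p = 0.0176). Both were looser within KO tumors, at 0.490 and 0.507, than within NTC tumors, at 0.959 and 0.923, a difference that was not tested. *Sdc2* had r = 0.832 (adjusted permutation p = 0.0159), *Sdc1* r = 0.750 (adjusted permutation p = 0.0390) and *Gpc6* r = 0.572 (adjusted permutation p = 0.166). Within NTC tumors the r of *Sdc1* was 0.690, and −0.430 without replicate 1. By rho 4 of the 8 passed, against 28.8% of genes. These were *Sdc3*, *Sdc4*, *Gpc1* and *Sdc2* (rho = 0.782, adjusted permutation p = 0.0398), and *Gpc4* (rho = 0.746), *Sdc1* (0.709) and *Gpc3* (0.697) did not pass (adjusted permutation p = 0.0556, 0.0759 and 0.0826). By r and without NTC replicate 1, 5 of the 8 passed, as did 32.1% of genes, and *Sdc1* and *Gpc3* no longer did (adjusted permutation p = 0.0660 and 0.0529).

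*Gpc3* and *Gpc4* had the largest coefficients of the 8 genes on the fibroblast score, over 10 and over 9 tumors. On the leukocyte score they were also the largest over 10 tumors, but over 9 *Sdc3* (0.94) lay above *Gpc4* (0.80). Whether they follow one score more closely than another was not tested. The fibroblast score was the mean log2 CPM of *Col1a1*, *Col1a2*, *Col3a1*, *Dcn*, *Lum*, *Pdgfra*, *Col6a3*, *Fap*, *Postn* and *Thy1*. It was 7.06, 6.95, 5.79, 5.58 and 7.88 in KO and 8.13, 2.12, 6.13, 3.47 and 5.80 in NTC tumors. NTC replicates 2 and 4, the tumors with 1 count of *Gpc4* each, had the lowest values. *Gpc3* rose by 1.13 per unit (SE 0.16, adjusted p = 0.000643) and *Gpc4* by 1.00 (SE 0.15, adjusted p = 0.000808) in edgeR's quasi-likelihood test, near the median of the fibroblast genes themselves, 1.03. Of the 8 genes, 7 were called on this score, against 28.9% of all genes (19.2% higher and 9.67% lower), 6 of them higher and *Gpc1* lower. Without NTC replicate 1, 3 were called, against 7.71% of genes. They were *Gpc3* at 1.09 (adjusted p = 0.0265), *Gpc4* at 0.88 (adjusted p = 0.0315) and *Sdc3* at 0.46 (adjusted p = 0.0461) by edgeR.

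With both scores in 1 model, *Sdc3* kept its leukocyte coefficient, and *Gpc3* and *Gpc4* were called on the fibroblast score only. The leukocyte coefficient of *Sdc3* was 1.11 (SE 0.13, interval 0.82 to 1.39, adjusted p = 0.000417 by edgeR's quasi-likelihood test), the only call among the 8 where 7.24% of genes were called. Over 9 tumors it was 1.12 (edgeR adjusted p = 0.000245, 8.52% of genes called). Its fibroblast coefficient was −0.07 (edgeR adjusted p = 0.780), and those of *Sdc1*, *Sdc4* and *Gpc1* also changed sign, to −0.039, −0.036 and 0.0066. On the fibroblast score 0.815% of genes were called, and 2 of them were *Gpc3* at 1.99 (SE 0.33, edgeR adjusted p = 0.0169) and *Gpc4* at 1.79 (SE 0.33, edgeR adjusted p = 0.0272). Over 9 tumors they were at 2.02 (edgeR adjusted p = 0.0690) and 1.69 (edgeR adjusted p = 0.0996), and none of the 8 was called (0.404% of genes). The leukocyte coefficients of *Gpc3* and *Gpc4* in this model were −1.40 (edgeR adjusted p = 0.123) and −1.26 (edgeR adjusted p = 0.152). The scores correlated at r = 0.929 (permutation p = 1e-04, adjusted 0.000333), so 10 tumors hold little to separate them.

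**Figure D4:**
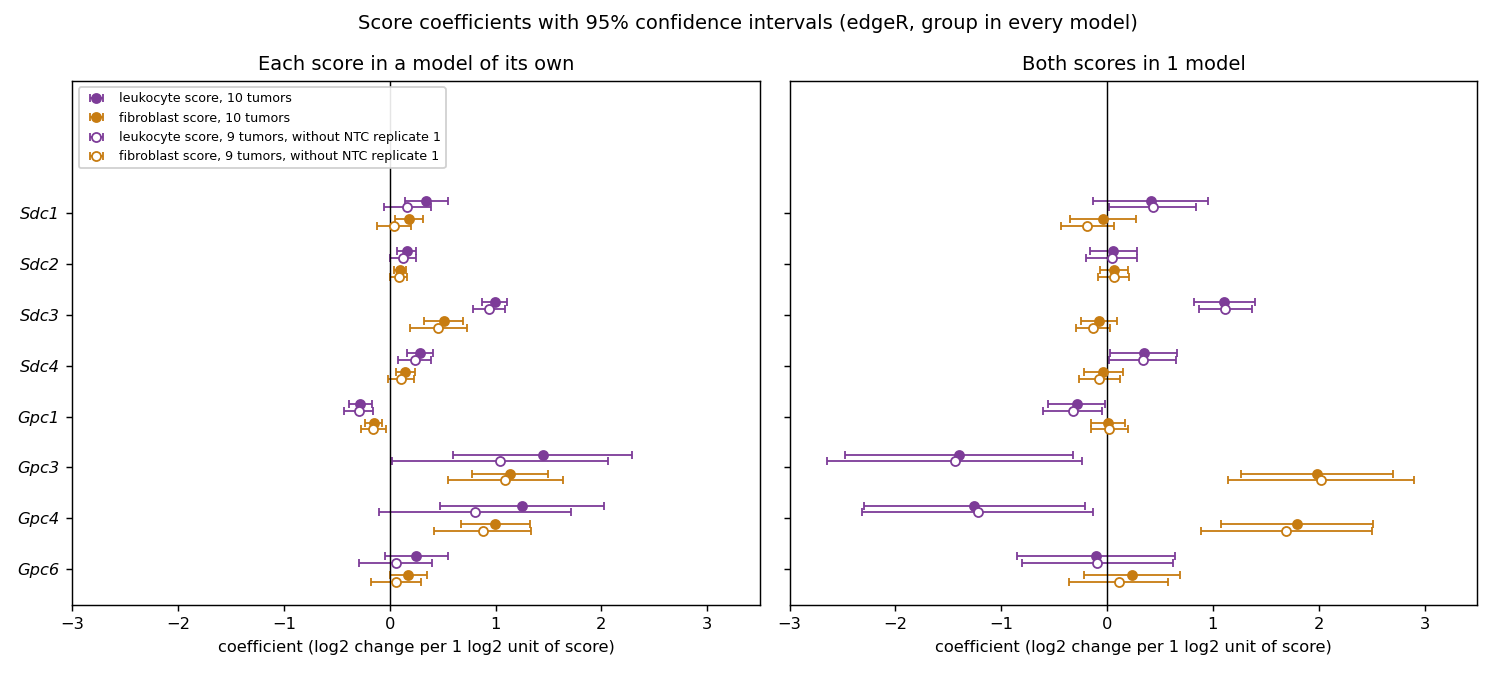
Coefficients with 95% confidence intervals (edgeR, group in every model) of the 8 genes on the leukocyte (purple) and the fibroblast (orange) score, each score in a model of its own (left) and both in 1 model (right), over 10 tumors (filled) and over 9 (open). *Sdc3* stays near 1 on the leukocyte score (0.99 alone, 1.11 with both), and *Gpc3* and *Gpc4* lie near 2 on the fibroblast score with both in the model.

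At an equal leukocyte score none of the 8 genes was called between KO and NTC tumors, where 0.0569% of genes were (0.0684% over 9 tumors). The difference of *Sdc3* was 0.23 (SE 0.11, interval −0.02 to 0.48, adjusted p = 0.417 by edgeR's quasi-likelihood test), beside 0.99 without the score. Over 9 tumors it was 0.34 (interval 0.04 to 0.64, adjusted p = 0.453 by edgeR), beside 1.62. *Gpc1*, at −0.02 without the score, was 0.23 higher in KO (SE 0.10, interval 0.01 to 0.45, adjusted p = 0.360 by edgeR) with it, and 0.19 over 9 tumors (adjusted p = 0.702 by edgeR). *Gpc1* was the only 1 of the 8 with an unadjusted p below 0.05 over 10 tumors, as were 2051 genes, and *Sdc3* the only 1 over 9 tumors, as were 1494. *Gpc4* was at 0.81 (SE 0.62) and *Gpc3* at −0.62 (SE 0.68), and *Sdc1*, *Sdc2*, *Sdc4* and *Gpc6* lay between −0.10 and −0.0035. Over 9 tumors *Gpc4* was at 1.53 (SE 0.72, adjusted p = 0.558 by edgeR) and *Gpc3* at −0.03, while *Gpc6* was at 0.37, *Sdc1* at 0.30, *Sdc4* at 0.0045 and *Sdc2* at −0.08.

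The other cell type scores are not independent of the leukocyte score, and the 8 genes were fitted on each of them. On the macrophage score, where 37.2% of genes were called, all of the 8 but *Gpc6* were called over 10 tumors. Over 9 tumors, where 24.4% of genes were called, 2 of the 8 were, *Sdc3* and *Gpc1*. *Sdc3* had 0.79 (SE 0.050, adjusted p = 2.78e-07) over 10 tumors and 0.78 (adjusted p = 1.62e-05) over 9, and *Gpc1* −0.23 (adjusted p = 0.000921) and −0.25 (adjusted p = 0.00714), by edgeR's quasi-likelihood test. On the T cell score the 4 syndecans and *Gpc1* were called over 10 tumors (30.8% of genes) and *Sdc3* and *Gpc1* over 9 (24.2% of genes). There *Sdc3* had 0.92 (adjusted p = 7.08e-05) and 0.78 (adjusted p = 4.66e-05), and *Gpc1* −0.23 (adjusted p = 0.0132) and −0.22 (adjusted p = 0.0265), by edgeR. On the melanoma score, the mean of 10 melanocyte genes, 6 of the 8 were called against 33.5% of genes, and *Gpc1* was the only 1 to rise. Its coefficient was 0.69 (SE 0.21, adjusted p = 0.0302 by edgeR), but 0.71 with adjusted p = 0.173 over 9 tumors. *Gpc4* had −2.97 (adjusted p = 0.0417) and *Sdc3* −2.43 (adjusted p = 0.00608) by edgeR, and over 9 tumors they were at −1.51 (edgeR adjusted p = 0.522) and −2.51 (edgeR adjusted p = 0.0730). *Sdc1* fell by 1.26 (adjusted p = 0.0013), *Sdc4* by 0.92 (adjusted p = 0.00141) and *Gpc6* by 1.23 (adjusted p = 0.0129) per unit of melanoma score by edgeR, and of all 8 only *Sdc4* was still called over 9 tumors (−0.92, adjusted p = 0.0337, 5.73% of genes called). The melanoma score spanned a narrower range, with SDs of 0.314 in KO and 0.390 in NTC tumors, and 0.0476 in NTC tumors without replicate 1.

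On the neutrophil, Schwann cell, endothelial and B and plasma cell scores *Sdc3* was called in each fit over 10 tumors. On the neutrophil score all 8 genes were called, against 35.5% of genes, with *Sdc3* at 0.61 (adjusted p = 0.00407 by edgeR's quasi-likelihood test). Over 9 tumors, where 22.5% were called, *Sdc3* (1.08), *Sdc4* (0.35) and *Gpc1* (−0.32) were called (edgeR adjusted p = 0.0143, 0.0138 and 0.0480). On the Schwann cell score, of nerve sheath genes, 7 of the 8 were called and *Gpc6* was not, against 35.9% of genes. *Gpc3* had 3.03 (adjusted p = 0.00697), *Gpc4* 2.87 (adjusted p = 0.00346) and *Sdc3* 1.86 (adjusted p = 0.0013) by edgeR. Over 9 tumors, where 20.2% were called, *Sdc3* (2.80), *Sdc4* (0.81) and *Gpc1* (−0.99) were called, with edgeR adjusted p of 0.00741, 0.0336 and 0.00882. On the endothelial score 6 of the 8 were called, all but *Sdc1* and *Gpc6*, against 25.2% of genes. *Gpc3* had 3.20 (adjusted p = 0.00198), *Gpc4* 2.61 (adjusted p = 0.00657) and *Sdc3* 1.48 (adjusted p = 0.00191) by edgeR. Over 9 tumors none of the 8 was called, against 5.12% of genes, and the lowest edgeR adjusted p was 0.0521 for *Gpc1* and *Gpc3*. On the B and plasma cell score *Sdc3* (0.83), *Gpc4* (1.21) and *Sdc2* (0.14) were called, with edgeR adjusted p of 0.0111, 0.0209 and 0.0467, against 20.7% of genes. Over 9 tumors none of the 8 was called on it, against 0.0311% of genes.

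Markers of skin and muscle also differed in range between the groups. The 10 skeletal muscle genes summed to 2.22 to 223 CPM in KO and 1.26 to 6.06 CPM in NTC tumors, and *Pvalb* was at 0 in every NTC tumor. The 10 keratinocyte genes summed to 1.87 to 32.5 CPM in KO and 0.427 to 4.71 CPM in NTC tumors, with *Krt5* and *Lor* at 0 in every NTC tumor. The scores gave p = 0.0714 and p = 0.143 between the groups by exact permutation tests, and p = 0.0317 and p = 0.0159 over 9 tumors by exact permutation tests. Over 9 tumors the keratinocyte scores of the groups did not overlap (lowest KO −2.94, highest NTC −2.99). Its p = 0.0159 is therefore the smallest that the two-sided exact permutation test gives there. No syndecan or glypican was called on either score by edgeR's quasi-likelihood test with group in the model. Over 10 tumors 0.00632% of genes were called on the muscle score and 0% on the keratinocyte score, and none of the 8 had an unadjusted p below 0.05. Over 9 tumors (0.0249% and 0%) *Sdc1*, *Sdc3* and *Sdc4* had an unadjusted p below 0.05 on both, with coefficients below 0. *Sdc3* had −0.29 on the muscle score (edgeR adjusted p = 0.128) and −0.48 on the keratinocyte score (edgeR adjusted p = 0.208). The part of skin and muscle in the differences between KO and NTC was not tested further.

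The genes whose pattern was closest to each member were taken as the 3 with the highest Pearson r of log2 CPM over the 10 tumors among all genes tested. For *Sdc3* they were *Arhgap25*, *Tnfrsf1b* and *Laptm5*, each with r = 0.997, and *Laptm5* is on the leukocyte list. For *Gpc3* they were *Efemp1* (0.983), *Cmah* (0.979) and *Galnt16* (0.976), and for *Gpc4* *Podn* (0.982), *Itga6* (0.982) and *Ptgfrn* (0.973), while *Gpc3* and *Gpc4* correlated with each other at 0.844. For *Gpc1* they included *Wdr59* (0.966) and *Gtf2i* (0.961). For *Sdc4* they were *Mdm2* (0.982), *Fbxl5* (0.974) and *Podnl1* (0.973), for *Sdc1* *Gm37370* (0.969), *Gsr* (0.967) and *Card19* (0.962), and for *Sdc2* *Gzma* (0.988), *Ifi213* (0.973) and *1110046J04Rik* (0.971). *Gpc6* had the loosest partners, *Reep3* (0.945), *Gm13650* (0.944) and *Gm48014* (0.937). Over the 9 tumors without NTC replicate 1 the r of these genes lay between 0.910 and 0.997. The order changed, and *Gtf2i* then ranked 13 for *Gpc1*, *Ptgfrn* 9 for *Gpc4* and *Gsr* 6 for *Sdc1*. Every r is taken over the same few tumors, which differ in depth and cell content, so the values are a description.

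The machinery that builds, trims and reads heparan sulfate was examined in 7 lists of 83 genes, of which 68 passed the low-count filter. None of the 68 was called between KO and NTC tumors over 10 or over 9 tumors, or at an equal leukocyte score. An unadjusted p below 0.05 was reached by 5 of them over 10 tumors, as by 1400 of 15821 genes, and by 23 over 9 tumors, as by 3230 of 16078. The difference with the lowest edgeR adjusted p was that of *Vegfa*, an endothelial growth factor held by heparan sulfate, at −0.91 in KO (SE 0.23, adjusted p = 0.235 by edgeR's quasi-likelihood test) and −0.95 over 9 tumors (adjusted p = 0.145). Without the score the others named for the lowest p in a list and direction were *B4galt7* (0.24), *B3galt6* (−0.18), *Ndst2* (0.34), *Ndst3* (−0.58), *Ids* (0.36), *Hgsnat* (−0.32), *Gpld1* (0.83), *Mmp9* (−0.59), *Prkca* (0.32), *Tiam1* (−0.29), *Ccl5* (1.24), *Nrp1* (0.74) and *Agrn* (−0.13). Without NTC replicate 1 *Mmp9* turned to 1.03 and *Agrn* was at −0.26. At an equal score 7 of the 68 had an unadjusted p below 0.05, as had 2051 of 15821 genes, and over 9 tumors 5 of the 68 had one, as had 1494 of 16078. *Vegfa* (−0.71), *Extl1* (0.72) and *Ext1* (−0.39) were among the 7, with edgeR adjusted p of 0.129, 0.159 and 0.202. Over 9 tumors they were at −0.42, 0.47 and −0.20, with edgeR adjusted p of 0.506, 0.383 and 0.698.

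On the leukocyte score 31 of the 68 genes rose and 8 fell over 10 tumors in edgeR's quasi-likelihood test, where 22.7% of all genes rose and 15.1% fell. Over 9 tumors 23 rose and 5 fell, where 15.8% of all genes rose and 11.7% fell. Of 14 ligands held by the chains 9 rose, with a median coefficient of 0.94 over the list, beside −0.006 for all genes. Over 9 tumors 6 of the 14 rose and the median was 0.68, beside −0.03. Differences between the lists were not tested. *Ptn*, a ligand of *Sdc3* in nerve, had 1.77, the chemokines *Cxcl12* and *Ccl5* had 1.57 and 1.19, *Fgf2* 1.27, *Wnt5a* 1.25, *Hgf* 1.22, *Fgf7* 0.96, *Mdk* 0.93 and *Pdgfb* 0.60, and *Vegfa* fell by 0.25. Over 9 tumors the coefficient was 0.78 for *Fgf2* and −0.43 for *Vegfa*, and *Mdk* (0.64), *Fgf7* (0.52) and *Wnt5a* (0.82) were not called (edgeR adjusted p = 0.236, 0.170 and 0.107). Of the proteases and other factors that release proteoglycans, 6 of 7 rose, with *Mmp2* at 1.45, *Mmp9* at 1.08, *Thbs1* at 0.85, *Adam17* at 0.29, *Adam10* at 0.21 and *Mmp14* at 0.20. Over 9 tumors *Thbs1* was at 0.54, and *Mmp9* was at 0.46 and not called (edgeR adjusted p = 0.349). With the fibroblast score also in the model, the leukocyte coefficients of *Fgf2* (−0.19), *Wnt5a* (−0.67), *Fgf7* (−0.56), *Mdk* (−0.64) and *Mmp9* (−0.85) lay below 0, and none of these 5 was called (edgeR adjusted p from 0.496 to 0.840). The remaining heparan sulfate proteoglycans and part-time carriers split. *Srgn*, the intracellular proteoglycan of leukocyte granules, rose by 1.07, *Col18a1* by 0.88, *Nrp1* by 0.69 and *Tgfbr3* by 0.65, and *Agrn*, of basement membranes, fell by 0.29. Over the alternatives of processing the lowest leukocyte coefficient was 0.36 for *Cxcl12*, 0.49 for *Mmp2*, 0.24 for *Thbs1* and 0.066 for *Tgfbr3*. Their highest edgeR adjusted p was 0.284, 0.0553, 0.776 and 0.923. *Hgf*, *Ccl5*, *Col18a1* and *Nrp1* were called in every alternative.

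Enzymes of the chain itself moved in both directions. Of 11 genes of linkage and polymerization, *Xylt1* (0.42), *B3gat3* (0.21) and *Ext1* (0.32) rose and *Extl1* fell by 0.67, and the list median was 0.01. Of 9 sulfation and epimerization genes tested, *Hs6st2* (1.84), *Hs3st3b1* (1.01), *Hs6st1* (0.29) and *Ndst2* (0.26) rose, and *Hs3st1* and *Hs2st1* fell by 0.50 and 0.14. Of 10 genes of editing and lysosomal turnover 3 rose, among them the extracellular sulfatase *Sulf1* by 1.51 and *Idua* by 0.24, and *Hgsnat* fell by 0.25. Of 10 cytoplasmic partners of syndecans, *Sdcbp2* and *Dnm2* rose by 0.74 and 0.16, and *Gipc1* and *Src* fell by 0.21 each. Over 9 tumors *Xylt1*, *Hs2st1*, *Hs6st1*, *Hgsnat*, *Gipc1*, *Dnm2* and *Tgfbr3* were not called. The coefficients that moved by over 1.5 times were then 0.26 for *Xylt1*, 0.21 for *Ext1*, 0.18 for *Hs6st1*, 1.20 for *Hs6st2* and 0.36 for *Tgfbr3*. With the fibroblast score also in the model, *Hs6st2* (−0.69) and *Sulf1* (−0.19) lay below 0 and *Hgsnat* (0.11) above it, none of them called (edgeR adjusted p = 0.536, 0.706 and 0.700).

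On the fibroblast score 27 of the 68 genes rose and 5 fell over 10 tumors by edgeR's quasi-likelihood test, where 19.2% of all genes rose and 9.67% fell. Over 9 tumors 8 rose and 1 fell, where 7.71% of genes were called. The 8 were *Sulf1* (0.92), *Cxcl12* (0.92), *Mmp2* (0.86), *Ptn* (1.38), *Hs6st2* (1.08), *Fgf2* (0.61), *Pdgfb* (0.49) and *Col18a1* (0.49), and *Hgsnat* fell by 0.19. The coefficients of *Sulf1*, *Cxcl12* and *Mmp2* over 10 tumors, 1.00, 1.00 and 0.89, were near those of *Gpc3* and *Gpc4*, 1.13 and 1.00.

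**Figure D5:**
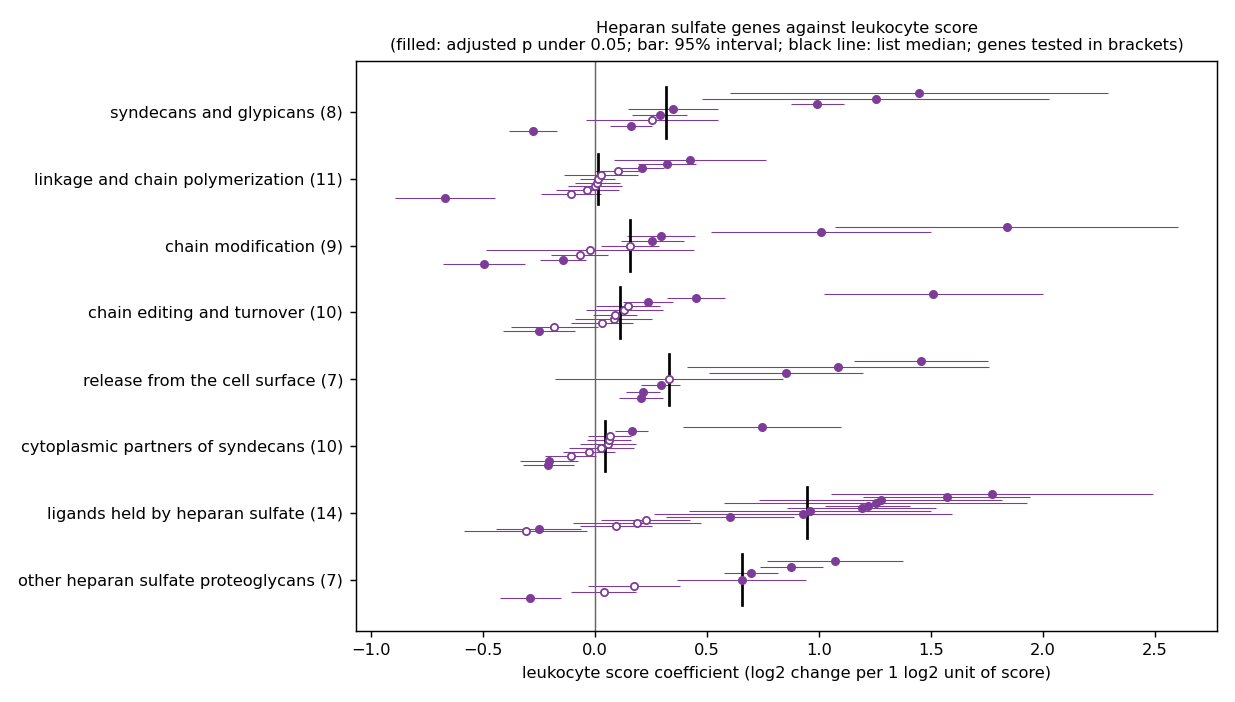
Leukocyte score coefficients over 10 tumors of the 68 genes tested from the 7 lists of heparan sulfate genes, 1 row of points a list, below those of the 8 syndecans and glypicans. Points are genes with 95% confidence intervals, filled where called, and black lines are list medians. The list median of the ligands is 0.94, and *Sdc3* (0.99) lies among the coefficients of the ligands and of *Srgn* (1.07).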

How the data were processed

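The 10 deposited tables held read counts per gene, 1 table a tumor, with no normalization by the authors. Per the labels and the methods of the study, total RNA was sequenced on an Illumina instrument, and the submitters' processing notes name FastQC, Trimmomatic, HISAT2, HTSeq and mm10. The annotation and the strand setting of the counting are not given in the sources used here. The summary entries of the counter, 35.3 to 64.1% of a file, were left out of library sizes and tests. The entries of 107 symbols that occur more than once were kept as separate genes. No column was left unassigned.

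Counts were tested with edgeR 4.0.16 (R 4.3.3) by the quasi-likelihood F test after TMM scaling and the filterByExpr filter, which left 15821 genes. P-values were adjusted by Benjamini-Hochberg over all of them. Group comparisons were called at an absolute log2 fold change above 1 with an adjusted p below 0.05, and score coefficients at an adjusted p below 0.05. Scores were means of log2 CPM (prior count 2) of 10 genes each, with group kept in the model. Standard errors were the absolute log2 change divided by the square root of F. Correlations used 100000 permutations of the score (scipy 1.17.1). Alternatives were RLE scaling, other filters, DESeq2 1.42.0, other scores, a replicate block and each tumor left out. All 10 members are named, with every called gene of the 7 pathway lists, otherwise the gene of lowest p in each direction of a list, and the 3 genes most like each member, except 2 genes that are not reported here. Members and lists were chosen with earlier results of these data known. The tests were run on simulated data with 15821 genes: of 100 genes changed by 1.5 on the log2 scale between KO and NTC 65 were recovered, of 100 changed by 3 91 were, and 72 and 91 of 100 were for leukocyte slopes of 0.5 and 1. The deposited tables give the depth: 3 counts correspond to 0.105 to 0.252 per 1000000 reads on genes.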

Additional observations from a re-analysis of the deposited data

Results flagged for a closer look

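In 7 of 30 groups of 5 values examined, 1 tumor lay so far from its group that the gap to its nearest neighbour exceeded 0.71 of the whole range (Dixon's criterion). Chance gives about 1 such group in 20. All 7 concern NTC replicate 1. Among the members it was the highest NTC tumor for *Sdc1* (95.8 CPM, gap 0.831 of the range), *Sdc4* (143 CPM, 0.876), *Gpc3* (29.5 CPM, 0.816), *Gpc4* (2.83 CPM, 0.764) and *Gpc5* (1.62 CPM, from 12 counts, 0.885). The same library had the fewest reads on genes (11896643, 0.73) and the most genes with a count (33193, 0.851). Its leukocyte and fibroblast scores, 7.34 and 8.13, were also the highest of the NTC tumors. Its TMM scaling factor was 0.628, against 0.968 to 1.11 in the other libraries, and a lower factor gives a higher CPM for the same count and depth. The part that its depth, its scaling factor, its reads outside genes and its cell content play in these levels was not tested.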

How the results depend on the processing

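Over 608 results of single members under an alternative, 534 kept their direction and their side of the threshold, 41 lost a call, 4 gained one and 29 changed sign; for the pathway genes named these were 1411, 165, 5 and 23 of 1604. The number of members called between KO and NTC was 0 in every alternative but DESeq2 with no filter and without NTC replicate 1, chosen after the data were seen (2), and 0 at an equal leukocyte score in every one. On the leukocyte score 7 became 4 with a replicate block, 1 with both scores and 3 to 8 with 1 tumor left out (3 without NTC replicate 1, 8 without NTC replicate 4). On the fibroblast score 7 became 6 with RLE scaling or with no filter, 4 with a replicate block, 2 with both scores and 3 to 7 with 1 tumor left out (3 without NTC replicate 1). By correlation 7 became 4 to 7 with 1 tumor left out (4 without KO replicate 5 and 4 without NTC replicate 4). With a minimum of 10 counts in every tumor, *Gpc3* and *Gpc4* could not be tested. Genes called between KO and NTC numbered 3, but 0 higher and 6 lower with that filter, 1 with a replicate block, 1 to 17 with 1 tumor left out (17 without NTC replicate 1), 96 by DESeq2 and 754 by DESeq2 with no filter over 9 tumors, and at an equal leukocyte score 9, but 16 with RLE scaling, 236 with no filter, 1 with a replicate block and 1 to 18 with 1 tumor left out.

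The replicate numbers did not pair the tumors: deviations of same-numbered tumors correlated at 0.172, −0.287, 0.0788, 0.633 and 0.206. With the replicate block *Sdc1* (0.21, edgeR adjusted p = 0.376), *Sdc2* (0.10, 0.303) and *Sdc4* (0.26, 0.110) were not called on the leukocyte score.

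Signs that changed between KO and NTC were those of *Gpc3* (0.84 with the block, 0.79 by DESeq2 over 9 tumors, −1.08 to 0.76 with 1 tumor left out), *Mmp9* (0.24, 1.06 and −1.02 to 1.03 likewise), *Gpc1* (−0.16 to 0.070 with 1 tumor left out, above 0 without KO replicate 2 or 5 or NTC replicate 2 or 4) and *Sdc2* (−0.024 to 0.087, below 0 without KO replicate 5 or NTC replicate 2 or 4). At an equal leukocyte score they were those of *Sdc1* (0.025 with no filter, 0.11 with the block, −0.16 to 0.30 with 1 tumor left out), *Gpc6* (0.074 with no filter, −0.16 to 0.37 with 1 tumor left out) and, only without NTC replicate 1, *Sdc4* (−0.14 to 0.0045), *Ndst2* (−0.11 to 0.18) and *Srgn* (−0.71 to 0.12). With both scores in the model the leukocyte coefficient changed sign for *Gpc3* (−1.40), *Gpc4* (−1.26), *Gpc6* (−0.11), *Hs6st2* (−0.69), *Sulf1* (−0.19), *Hgsnat* (0.11), *Mmp9* (−0.85), *Mdk* (−0.64), *Fgf2* (−0.19), *Fgf7* (−0.56) and *Wnt5a* (−0.67), and the fibroblast coefficient for *Sdc1* (−0.039), *Sdc3* (−0.073), *Sdc4* (−0.036), *Gpc1* (0.0066), *Extl1* (0.059), *Hs6st1* (−0.048), *Idua* (−0.024), *Adam17* (−0.041), *Dnm2* (−0.050), *Hgf* (−0.28), *Ccl5* (−0.35), *Vegfa* (0.25), *Nrp1* (−0.13) and *Agrn* (0.14). The causes were not tested. Depth limits *Gpc2*, *Gpc5* and, in NTC replicates 2 and 4, *Gpc3* and *Gpc4*.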
